A study of Mus musculus with 10 samples.

Results

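The genes described here mark T lymphocytes and natural killer (NK) cells, and they were followed in RNA from mouse hepatic endothelial cells. They were 10 genes chosen by name: Cd3d, Cd3e, Cd3g, Trac, Cd4, Cd8a, Il7r, Nkg7, Gzma and Ncr1. Their versioned Ensembl identifiers were matched to symbols, and all 10 were found among the 55385 genes listed for each library. All 10 also passed the filter on low counts, which left 15043 genes for testing. The samples were 5 libraries titled Alk1-HEC-KO (genotype KO), called KO-labelled here, and 5 libraries labelled Control (genotype WT). Alk1 is an alias of Acvrl1, which encodes an endothelial receptor for BMP ligands. Cells other than hepatocytes had been separated on a Nycodenz gradient and endothelial cells then pulled out with anti-CD146 magnetic beads; Mcam encodes CD146. What drives the deletion, which exons it removes, how old the mice were and how many animals stand behind a library is not given in the sources used here. P-values therefore measure only how these libraries differ among themselves, which may be technical.

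On T cells, the antigen receptor is a pair of variable chains held in a complex with the CD3 gamma, delta and epsilon chains and with CD247, the zeta chain. The receptor chains bind peptide on MHC molecules, CD4 and CD8 act as coreceptors, and the CD3 and CD247 chains carry the signal into the cell. NK cells lack this receptor; they use activating and inhibitory receptors and kill with perforin and granzymes. The mouse liver holds T cells, NKT cells, NK cells and type 1 innate lymphoid cells in and around its sinusoids.

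Total estimated counts were 23489494 to 23602771 per library. Acvrl1, the targeted gene, went against the genotype label: it was at 239, 246, 250, 258 and 245 CPM (counts scaled to the library total) in KO-labelled libraries 1 to 5, against 124.5, 125, 136, 114 and 135 CPM in controls 1 to 5. The log2 fold change of Acvrl1, KO-labelled over control, was 0.96 ± 0.05 SE (edgeR adjusted p = 1.74e-07), so every direction given below is a direction between libraries as labelled. The endothelial label was checked with Cdh5, which encodes VE-cadherin and averaged 1914 CPM in KO-labelled libraries and 1717 CPM in controls. Of 10 endothelial markers, 3 were called higher and 4 lower, where 10.6% of all genes tested were higher and 9.08% lower. The summed level of the 10 markers was lower in every KO-labelled library, at 14870 to 16460 CPM against 17490 to 19970 CPM in controls. Mcam, whose product the beads capture, was among the markers called higher. It was at 541 ± 35.8 CPM in KO-labelled libraries and 330 ± 44.4 CPM in controls (SD, n = 5 each). Leukocyte RNA was present in all libraries: Ptprc, the CD45 gene, averaged 38.7 ± 14.4 CPM in KO-labelled libraries and 36.9 ± 10.3 CPM in controls (SD, n = 5 each; edgeR adjusted p = 0.899). In such bulk samples, fewer cells of a type and less RNA per cell cannot be told apart.

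The 3 CD3 genes lie close together on chromosome 9 (GRCm38, GENCODE M21). Cd3g (ENSMUSG00000002033.14) runs from 44969572 to 44980431 on the minus strand, and Cd3d (ENSMUSG00000032094.8) from 44981786 to 44987339 on the plus strand. Their annotated starts face away from each other and are 1355 bases apart. Cd3e (ENSMUSG00000032093.7) runs from 44998740 to 45009627 on the minus strand; the annotation places Gm48719 and Gm48720 over it, so its counts could include theirs. The RefSeq promoter windows (GRCm38.p6) of the CD3 genes are printed because these neighbours are read side by side below, and that of Gzma as the gene of the set with the highest TPM. Each is written 5′ to 3′ on the strand of its gene and ends 50 bases past the start. Capitals mark CAGGTG (or CACCTG on the other strand), GGAAGT (or ACTTCC) and TGTGGT (or ACCACA).
Cd3d, chr9:44981536-44981835, plus strand: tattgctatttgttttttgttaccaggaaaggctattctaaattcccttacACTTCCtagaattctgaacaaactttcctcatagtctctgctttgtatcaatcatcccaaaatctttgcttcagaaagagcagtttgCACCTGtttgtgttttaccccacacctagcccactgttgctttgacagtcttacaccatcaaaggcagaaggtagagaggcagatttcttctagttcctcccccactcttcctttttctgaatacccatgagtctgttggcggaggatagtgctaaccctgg
Cd3g, chr9:44980382-44980681, minus strand: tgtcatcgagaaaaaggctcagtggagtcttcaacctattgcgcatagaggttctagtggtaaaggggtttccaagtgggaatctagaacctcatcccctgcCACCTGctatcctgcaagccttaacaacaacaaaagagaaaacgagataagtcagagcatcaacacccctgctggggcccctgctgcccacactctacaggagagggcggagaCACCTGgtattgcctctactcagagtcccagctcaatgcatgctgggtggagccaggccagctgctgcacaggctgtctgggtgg
Cd3e, chr9:45009562-45009861, minus strand: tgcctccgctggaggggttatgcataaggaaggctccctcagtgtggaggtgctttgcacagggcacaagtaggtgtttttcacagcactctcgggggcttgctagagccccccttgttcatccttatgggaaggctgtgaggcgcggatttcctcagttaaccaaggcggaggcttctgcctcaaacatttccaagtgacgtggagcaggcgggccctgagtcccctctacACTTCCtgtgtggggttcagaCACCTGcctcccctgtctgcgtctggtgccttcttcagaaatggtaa
Gzma, chr13:113100932-113101231, minus strand: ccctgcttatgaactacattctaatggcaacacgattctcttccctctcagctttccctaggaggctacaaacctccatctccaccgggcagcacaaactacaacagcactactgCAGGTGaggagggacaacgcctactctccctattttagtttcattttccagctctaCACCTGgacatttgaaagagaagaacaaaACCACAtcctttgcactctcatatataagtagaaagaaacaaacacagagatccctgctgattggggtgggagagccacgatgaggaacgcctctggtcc
The table held a window for 8 of the 10 genes, with none for Trac and Cd4. CAGGTG, the letters of an E-box, stood on either strand in the windows of Cd3d, Cd3e, Cd3g and Gzma and in 20.2% of all 32851 windows. GGAAGT, which holds the GGAA core of ETS sites, was in those of Cd3d, Cd3e and Il7r and in 23.8% of all windows. TGTGGT, the core of RUNX sites, was in those of Il7r, Nkg7, Gzma and Ncr1 and in 16.8% of all windows. TATAAA was in no window of the 8 genes and in 13.6% of all. These motifs do not overlap one another in the printed windows, and a match describes letters only.

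Of the 4 genes Cd3d, Cd3e, Cd3g and Trac, which build the T cell receptor complex, 2 were lower in the KO-labelled libraries. Trac and Cd3d passed the test, both with log2 fold changes below -1.0; Cd3e and Cd3g had negative estimates that did not pass. Cd4 was also lower. Cd8a, Il7r, Nkg7, Gzma and Ncr1 did not pass in either direction. In all, 0 of the 10 genes were called higher, 3 lower and 7 not passed at an adjusted p of 0.05. Over all 15043 genes, 9.08% were called lower and 10.6% higher. At an unadjusted p under 0.05, 5 of the 10 genes were lower and 0 higher, where 15.6% of all genes tested were lower and 16.7% higher, and DESeq2 and limma-voom each called 3 lower and 0 higher. With single libraries left out, the number called lower was 4 without KO-labelled library 1, and 1 without KO-labelled library 3, control 3 or control 4. The median log2 fold change of the 10 genes was -0.50, beside 7.77e-05 over all genes tested. The balance of calls over all genes moved with the scaling: 1593 were higher and 1366 lower with TMM, 1968 higher and 1024 lower with library totals alone, and 1840 higher and 685 lower on log2(TPM + 1).

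Cd3d encodes CD3 delta, a signalling chain of the receptor. It had 0.839, 0.534, 0.381, 0.547 and 0.920 CPM in KO-labelled libraries 1 to 5, against 1.85, 1.07, 1.57, 1.35 and 0.897 CPM in controls 1 to 5. The groups overlapped only at KO-labelled library 5 and control 5; the other 4 KO-labelled libraries were below every control. The means were 0.644 ± 0.227 CPM in KO-labelled libraries and 1.35 ± 0.381 CPM in controls (SD, n = 5 each), a log2 fold change of -1.06 ± 0.28 SE (95% interval -1.68 to -0.44; edgeR adjusted p = 0.0201). These levels rest on few reads: KO-labelled library 3 had 9 Cd3d counts, with an exact Poisson interval of 4.12 to 17.1 that covers counting error only. Cd3d was called with any single library left out, with adjusted p-values of 0.0138 to 0.0491. On log2(TPM + 1), which takes transcript length into account and uses no TMM scaling, the call was lost (log2 difference -0.41, limma adjusted p = 0.108). The added 1 is of the size of the TPM values themselves and shrinks the difference. On log2(TPM + 0.1) it was -0.70 (limma adjusted p = 0.113). In the count test with length offsets the log2 fold change was -0.89, and the call was lost as well (edgeR adjusted p = 0.0714).

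The order of the libraries also differed between CPM and TPM. In TPM, which scales by transcript length and library, Cd3d stood at 0.947, 0.614, 1.24, 0.605 and 1.23 in KO-labelled libraries 1 to 5, against 2.28, 1.19, 2.07, 1.33 and 1.0 in controls 1 to 5. KO-labelled library 3, the lowest in CPM, was thus the highest of its group in TPM. It had 7.25 estimated Cd3d counts for each TPM unit, against 17.4 to 22.7 in controls and 17.9 to 21.5 in the other 4 KO-labelled libraries. The annotation lists 3 Cd3d transcripts of 286 to 1617 bases.

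Trac (ENSMUSG00000076928.5; chromosome 14, 54220521 to 54224206, plus strand) encodes the constant region of the alpha chain. Trac had 3.74, 1.73, 1.23, 0.841 and 2.84 CPM in KO-labelled libraries 1 to 5, against 6.05, 2.75, 4.67, 6.21 and 4.18 CPM in controls 1 to 5. KO-labelled libraries 2, 3 and 4 were below every control, and libraries 1 and 5 lay within the control range. The means were 2.08 ± 1.20 CPM in KO-labelled libraries and 4.77 ± 1.43 CPM in controls (SD, n = 5 each), with a log2 fold change of -1.20 ± 0.38 SE (95% interval -2.03 to -0.37; edgeR adjusted p = 0.0456). Trac was still called on log2(TPM + 1) (limma adjusted p = 0.0422), but the call ended with library totals alone (edgeR adjusted p = 0.0516) and without a filter (0.138). It also ended without KO-labelled library 2, 3 or 4 or control 1, 3, 4 or 5 (adjusted p-values from 0.0632 to 0.104). A replicate block for library number ended the call as well (edgeR adjusted p = 0.0524).

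Cd3e encodes CD3 epsilon, which pairs with the gamma and delta chains. It had 1.51, 1.03, 0.550, 0.547 and 0.962 CPM in KO-labelled libraries 1 to 5, against 2.31, 1.16, 1.53, 2.25 and 0.939 CPM in controls 1 to 5. KO-labelled libraries 3 and 4 were below every control, and the other 3 overlapped them. The log2 fold change was -0.83 ± 0.34 SE (95% interval -1.56 to -0.10; edgeR adjusted p = 0.106), which did not pass. Without KO-labelled library 1 it was -1.08 and passed (adjusted p = 0.0445). Cd3g encodes CD3 gamma. It had 2.77, 2.18, 0.846, 1.47 and 3.39 CPM in KO-labelled libraries 1 to 5, against 4.54, 2.32, 4.27, 4.68 and 2.60 CPM in controls 1 to 5. The groups overlapped in KO-labelled libraries 1 and 5, and the log2 fold change of -0.79 ± 0.34 SE did not pass (95% interval -1.53 to -0.04; edgeR adjusted p = 0.131).

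**Figure D1:**
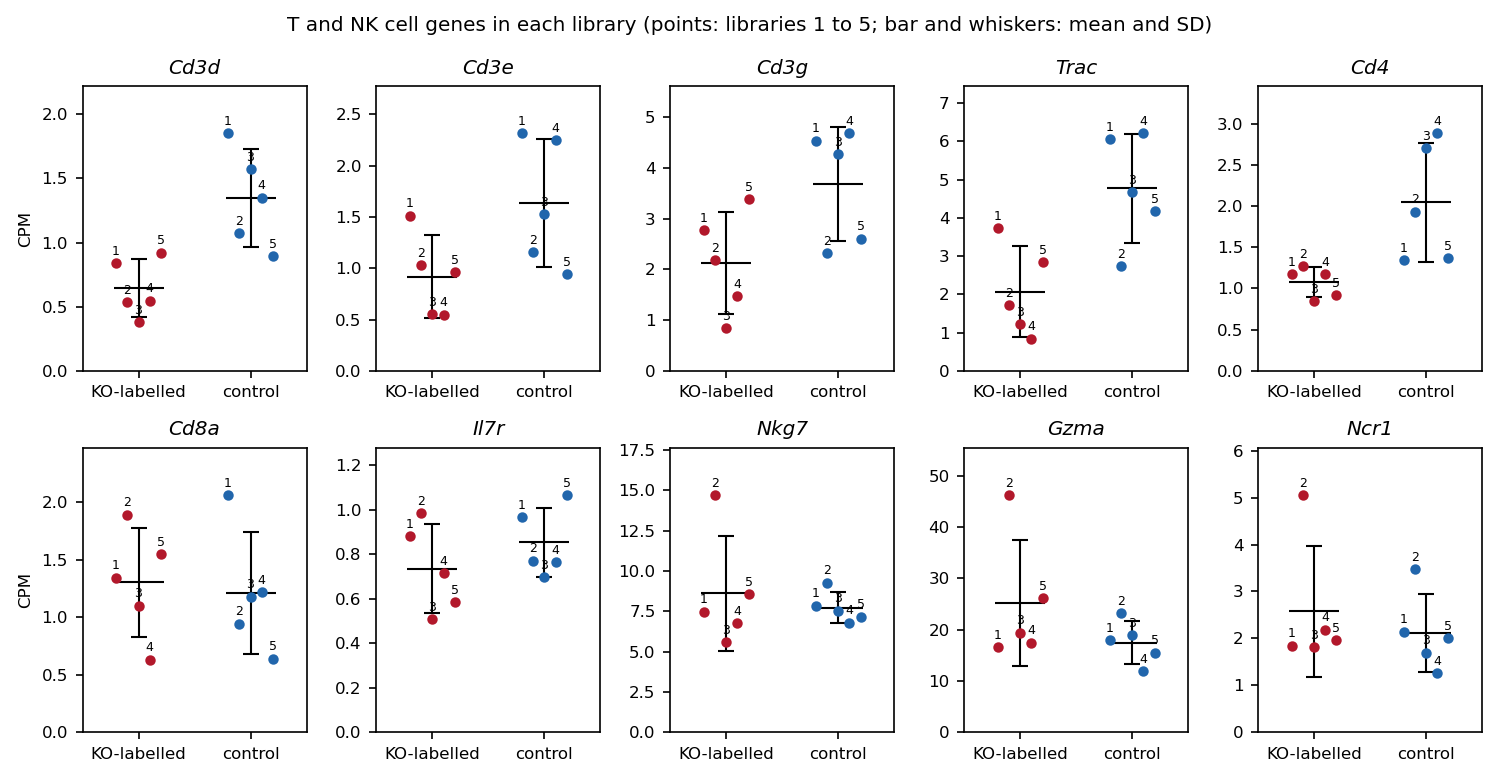
Level of each of the 10 genes in CPM (linear axes from 0), with KO-labelled libraries in red on the left and controls in blue on the right of each panel; points are libraries numbered 1 to 5, and the bar and whiskers are the mean and SD of n = 5. For Cd4 all KO-labelled points, up to 1.27 CPM, sit below all control points, and for Gzma, Nkg7 and Ncr1 KO-labelled library 2 is the highest point.

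Cd4 (ENSMUSG00000023274.14; chromosome 6, 124864692 to 124888221, minus strand) encodes the coreceptor for MHC class II, found on helper T cells and, in mice, also on some dendritic cells. Cd4 had 1.18, 1.27, 0.846, 1.18 and 0.920 CPM in KO-labelled libraries 1 to 5, against 1.35, 1.93, 2.70, 2.88 and 1.37 CPM in controls 1 to 5. It was the only gene of the 10 whose groups did not overlap in CPM, which 15.4% of all genes tested also showed. The means were 1.08 ± 0.185 CPM in KO-labelled libraries and 2.05 ± 0.724 CPM in controls (SD, n = 5 each), a log2 fold change of -0.92 ± 0.25 SE (95% interval -1.47 to -0.36; edgeR adjusted p = 0.0237). The call ended on log2(TPM + 1) (log2 difference -0.29, limma adjusted p = 0.128) and on log2(TPM + 0.1) (-0.56, limma adjusted p = 0.138). With length offsets the log2 fold change was -0.79, and the call ended too (edgeR adjusted p = 0.0803). The call also ended without KO-labelled library 3 or 5 or control 3 or 4 (adjusted p-values from 0.0524 to 0.0652). A replicate block for library number ended the call as well (edgeR adjusted p = 0.0504). In TPM the groups of Cd4 overlapped: KO-labelled libraries 1 to 5 had 0.652, 0.725, 0.471, 0.639 and 1.01 TPM, against 0.760, 1.13, 1.35, 1.48 and 0.748 TPM in controls 1 to 5. KO-labelled library 5 had 21.8 estimated Cd4 counts for each TPM unit, against 40.0 to 45.8 in controls and 42.4 to 43.8 in the other 4 KO-labelled libraries. The annotation lists 5 Cd4 transcripts of 273 to 3108 bases.

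Cd8a (ENSMUSG00000053977.13; chromosome 6, 71373427 to 71379173, plus strand) encodes the alpha chain of the coreceptor for MHC class I, carried by cytotoxic T cells and some dendritic cells. Cd8a had 1.34, 1.89, 1.10, 0.631 and 1.55 CPM in KO-labelled libraries 1 to 5, against 2.06, 0.944, 1.18, 1.22 and 0.640 CPM in controls 1 to 5. The ranges coincided almost fully, and the log2 fold change was 0.11 ± 0.33 SE (95% interval -0.62 to 0.83; edgeR adjusted p = 0.866). Its sign turned without KO-labelled library 2 (-0.07) or control 5 (-0.05).

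Il7r (ENSMUSG00000003882.5; chromosome 15, 9505788 to 9530176, minus strand) encodes the alpha chain of the IL-7 receptor, which resting T cells and innate lymphoid cells use for survival. Il7r had 0.881, 0.986, 0.508, 0.715 and 0.586 CPM in KO-labelled libraries 1 to 5, against 0.967, 0.772, 0.698, 0.765 and 1.07 CPM in controls 1 to 5. The groups overlapped, with a log2 fold change of -0.21 ± 0.24 SE (95% interval -0.74 to 0.31; edgeR adjusted p = 0.590). On log2(TPM + 1) its sign was positive, at 0.02. KO-labelled library 1 had 27.4 estimated Il7r counts for each TPM unit, against 48.4 to 53.2 in controls and 47.2 to 49.9 in the other 4 KO-labelled libraries.

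None of the 3 cytotoxic and NK genes passed by edgeR, by DESeq2, by limma-voom or at an unadjusted p under 0.05. Gzma (ENSMUSG00000023132.8; chromosome 13, 113093825 to 113100981, minus strand) encodes granzyme A, a serine protease of cytotoxic granules. Gzma had 16.7, 46.3, 19.4, 17.5 and 26.1 CPM in KO-labelled libraries 1 to 5, against 17.9, 23.3, 18.9, 11.9 and 15.5 CPM in controls 1 to 5. KO-labelled libraries 2 and 5 were above every control, and the other 3 lay among them. The log2 fold change of Gzma was 0.52 ± 0.31 SE (95% interval -0.17 to 1.22; edgeR adjusted p = 0.285).

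Nkg7 (ENSMUSG00000004612.9; chromosome 7, 43437073 to 43438249, plus strand) encodes a membrane protein of cytotoxic granules. Nkg7 had 7.47, 14.7, 5.58, 6.77 and 8.58 CPM in KO-labelled libraries 1 to 5, against 7.86, 9.27, 7.55, 6.79 and 7.17 CPM in controls 1 to 5. Only KO-labelled library 2 was above every control, while libraries 3 and 4 were below every one of them. The log2 fold change of Nkg7 was 0.16 ± 0.23 SE (95% interval -0.34 to 0.66; edgeR adjusted p = 0.687), and without KO-labelled library 2 it was -0.13.

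Ncr1 (ENSMUSG00000062524.4; chromosome 7, 4337724 to 4345164, plus strand) encodes NKp46, an activating receptor of NK cells and innate lymphoid cells. Ncr1 had 1.85, 5.05, 1.82, 2.19 and 1.97 CPM in KO-labelled libraries 1 to 5, against 2.14, 3.48, 1.70, 1.26 and 2.01 CPM in controls 1 to 5. Again KO-labelled library 2 stood above all other libraries. The log2 fold change of Ncr1 was 0.28 ± 0.34 SE (95% interval -0.46 to 1.02; edgeR adjusted p = 0.622), and without KO-labelled library 2 it was -0.12.

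Levels between genes were compared per length, in TPM. Gzma was highest in both groups, at 59.1 ± 29.8 TPM in KO-labelled libraries and 38.3 ± 10.1 TPM in controls (SD, n = 5 each). Nkg7 came next, at 20.8 ± 9.0 TPM in KO-labelled libraries and 17.9 ± 3.21 TPM in controls. Trac followed at 4.84 ± 2.45 TPM in KO-labelled libraries and 9.78 ± 3.0 TPM in controls. The ranges of Gzma and Nkg7, and of Nkg7 and Trac, did not overlap in either group. Cd3g had 4.29 ± 2.13 TPM in KO-labelled libraries and 7.00 ± 2.17 TPM in controls. Ncr1 had 3.27 ± 1.77 TPM in KO-labelled libraries and 2.56 ± 1.08 TPM in controls. Cd3e had 1.26 ± 0.510 TPM in KO-labelled libraries and 2.35 ± 0.885 TPM in controls. Below them, Cd3d, Cd4, Cd8a and Il7r averaged 0.427 to 0.928 TPM in KO-labelled libraries and 0.394 to 1.57 TPM in controls. Among the neighbours in that order from Trac down, only Ncr1 and Cd3e in the KO-labelled libraries, and Cd3g and Ncr1 in the controls, had ranges that did not overlap. The order was the same in both groups except that Cd8a stood above Cd4 in KO-labelled libraries and below it in controls.

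**Figure D2:**
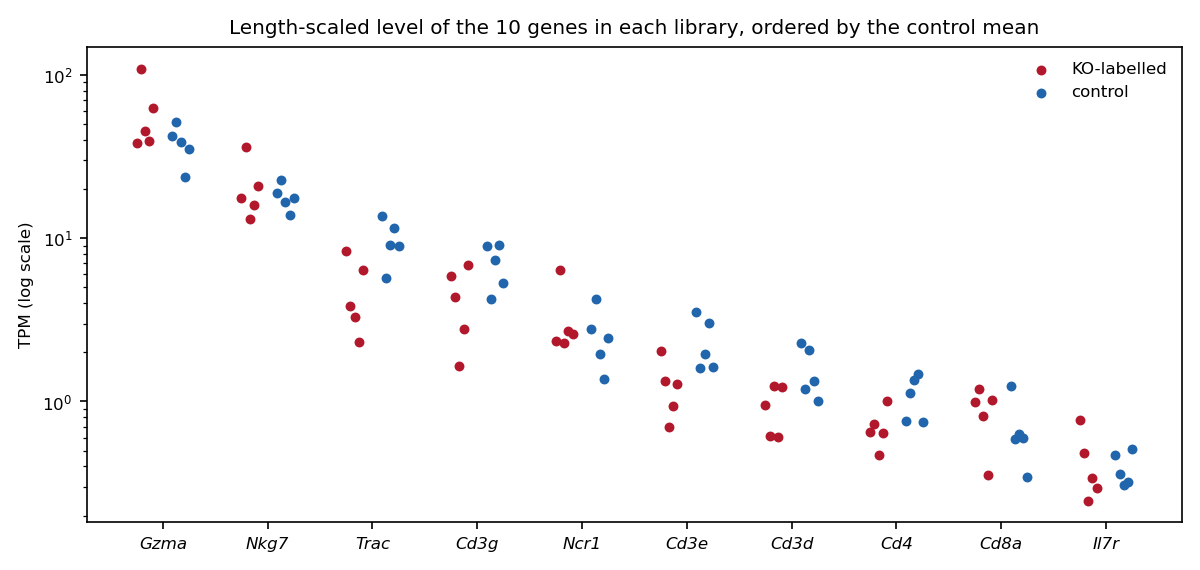
TPM of each gene in each library on a log axis, with KO-labelled libraries in red left of controls in blue, and genes ordered by the control mean. Levels run from the Gzma points, up to 109 TPM in KO-labelled library 2, to the Il7r points, all under 1 TPM, and the red and blue points overlap for every gene.

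The receptor genes and the cytotoxic genes were also summed within each library. Summed over Cd3d, Cd3e, Cd3g and Trac, the level was 8.86, 5.46, 3.0, 3.41 and 8.12 CPM in KO-labelled libraries 1 to 5, against 14.8, 7.29, 12.04, 14.5 and 8.63 CPM in controls 1 to 5. KO-labelled libraries 2, 3 and 4 were the lowest 3 of the 10, and libraries 1 and 5 lay above control 2. Summed over Nkg7, Gzma and Ncr1, it was 26.0, 66.0, 26.8, 26.5 and 36.7 CPM in KO-labelled libraries 1 to 5, against 27.9, 36.0, 28.2, 20.0 and 24.7 CPM in controls 1 to 5. Here KO-labelled libraries 2 and 5 were the highest. The cytotoxic sum divided by the receptor sum was 2.93, 12.1, 8.93, 7.76 and 4.52 in KO-labelled libraries 1 to 5, against 1.89, 4.94, 2.34, 1.38 and 2.87 in controls 1 to 5. KO-labelled libraries 2, 3 and 4 had ratios above every control, and the other 2 overlapped them. Set against Ptprc, the receptor sum was 15.4, 10.8, 10.6, 10.6 and 32.2 CPM per 100 CPM of Ptprc in KO-labelled libraries 1 to 5, against 48.5, 16.7, 23.7, 57.0 and 25.2 in controls 1 to 5. KO-labelled libraries 1 to 4 were below every control on that scale, and library 5 lay among them.

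**Figure D3:**
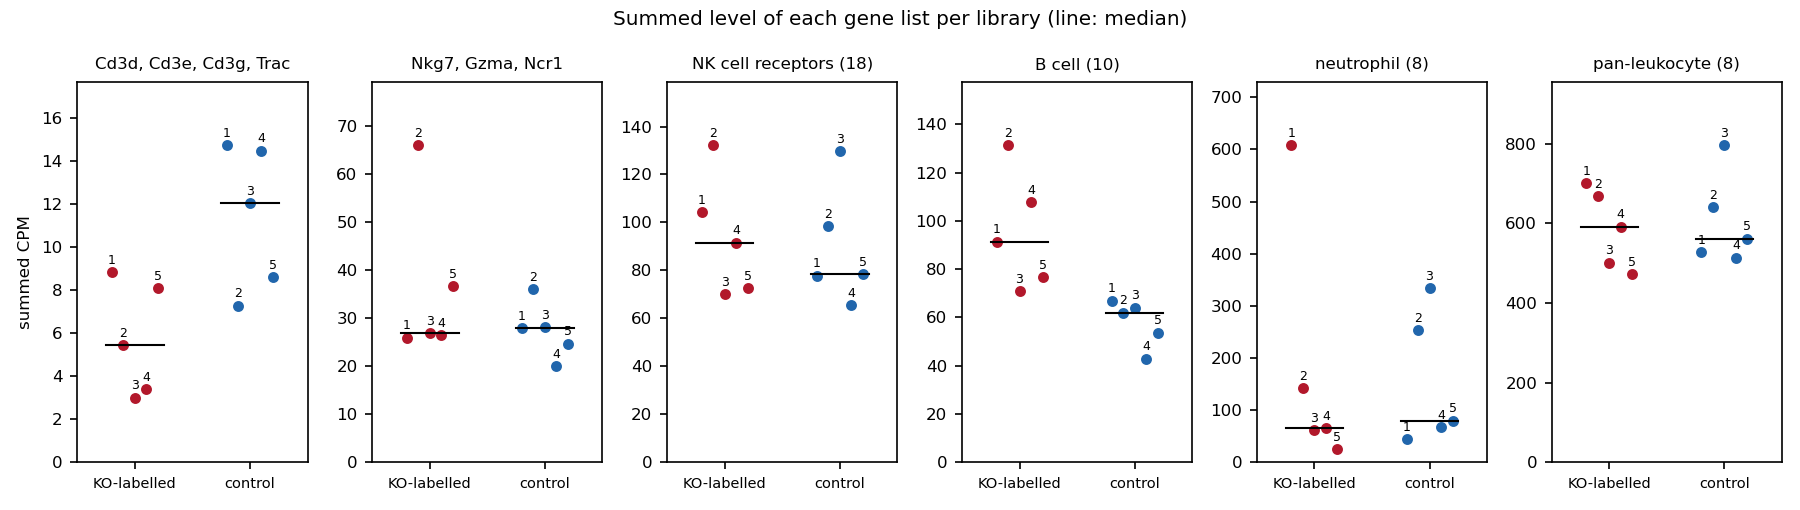
Summed CPM of the receptor genes, the cytotoxic genes and 4 marker lists (number of genes in brackets) in each library, with KO-labelled libraries in red left of controls in blue, numbered 1 to 5; lines are medians. The receptor sum has a median of 5.46 CPM in KO-labelled libraries and 12.04 CPM in controls. The ranges of the pan-leukocyte sums overlap in part, at 472 to 701 CPM in KO-labelled libraries and 514 to 797 CPM in controls. Which cells the RNA of each list came from was not tested.

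Markers of other cells in the preparation were read beside these sums. For comparison, edgeR called 9.08% of all 15043 genes tested lower and 10.6% higher. Of 8 pan-leukocyte genes 1 was lower (Arhgdib, log2 fold change -0.25, edgeR adjusted p = 0.00589) and none higher, and their sums were 472 to 701 CPM in KO-labelled libraries and 514 to 797 CPM in controls. Of 10 B cell genes, Ighm was higher (58.5 ± 14.6 CPM in KO-labelled libraries and 27.2 ± 5.08 CPM in controls), Blk was lower and 8 did not pass. The B cell sums did not overlap, at 70.9 to 131 CPM in KO-labelled libraries and 43.0 to 66.9 CPM in controls. Ighm alone made up a large part of these sums, and sums without it were not compared. Of 7 neutrophil genes tested, 0 passed by edgeR, at an unadjusted p under 0.05, by DESeq2 or by limma-voom, but they stood apart in KO-labelled library 1, whose sum of 609 CPM compares with 25.7 to 142 CPM in the other 4 KO-labelled libraries and 44.7 to 334 CPM in controls. Of 10 hepatocyte genes, 3 were lower by edgeR (Cyp2e1, Cyp3a11 and Apoa2), 6 by DESeq2, 6 at an unadjusted p under 0.05 and 4 by limma-voom, and 0 were higher by any of them. Of the 10, 9 had negative estimates, with a median log2 fold change of -1.39, and their sums were 466 to 1078 CPM in KO-labelled libraries and 517 to 2193 CPM in controls. Of 10 dendritic cell genes 1 was higher (Clec9a), and of 4 platelet genes tested 1 was lower (Gp1ba). Of 10 Kupffer cell genes 0 passed by edgeR, DESeq2 or limma-voom, with 1 higher (Marco) and 0 lower at an unadjusted p under 0.05. Kupffer sums were 619 to 1521 CPM in KO-labelled libraries and 708 to 2221 CPM in controls. No gene of these lists was at 0 in all libraries, and their part in the T cell results was not tested.

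The remaining chains of the receptor complex split. Trbc1 and Trbc2, the beta chain constant regions, are near copies that share reads, so their separate values are uncertain. Both were lower: Trbc2 averaged 1.46 ± 0.663 CPM in KO-labelled libraries and 2.97 ± 0.365 CPM in controls, with no overlap (log2 fold change -1.02 ± 0.29 SE, edgeR adjusted p = 0.0257). Trbc1 averaged 0.977 ± 0.332 CPM in KO-labelled libraries and 1.89 ± 0.675 CPM in controls (log2 fold change -0.94 ± 0.30 SE, adjusted p = 0.0445). Trbc2 was called in 18 of 21 alternatives and lost without KO-labelled library 4 or control 1 or 4 (0.0511 to 0.0532). Trbc1 was called in 9 of 21. The call ended by limma-voom (adjusted p = 0.0635), with library totals alone (0.0539) and on log2(TPM + 1) (0.0546). It also ended with the replicate block (0.112) and without KO-labelled library 1, 3, 4 or 5 or control 1, 3 or 4 (0.0549 to 0.113). Summed over the 178 annotated variable segments of the receptor loci, there were 51, 35, 15, 16 and 54.7 estimated counts in KO-labelled libraries 1 to 5, against 96, 42, 60, 74 and 48 in controls 1 to 5. KO-labelled libraries 2, 3 and 4 had the fewest, as in the CD3 and Trac sum. They came from 10 to 27 different segments in KO-labelled libraries and 22 to 33 in controls. The delta chain constant region Trdc averaged 0.71 CPM in KO-labelled libraries and 0.448 CPM in controls and did not pass (adjusted p = 0.185), nor did any of the 3 gamma chain constant regions measured.

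Cd247, the zeta chain, ran the other way. Cd247 (ENSMUSG00000005763.15; chromosome 1, 165788681 to 165877277, plus strand) had 6.63, 6.12, 6.85, 6.01 and 3.85 CPM in KO-labelled libraries 1 to 5, against 1.85, 1.29, 1.35, 1.62 and 2.69 CPM in controls 1 to 5. Every KO-labelled library was above every control. The means were 5.89 ± 1.20 CPM in KO-labelled libraries and 1.76 ± 0.566 CPM in controls (SD, n = 5 each), with a log2 fold change of 1.74 ± 0.22 SE (edgeR adjusted p = 1.47e-04). It was called in all 21 alternatives run. The annotation places 6 other genes over parts of Cd247, among them Pou2f1 on the opposite strand, so some of its counts could come from these. Between the groups Cd247 moved opposite to Trac and Cd3d, which belong to the same receptor complex. Which cells the Cd247 RNA came from was not tested.

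Further T cell genes were read list by list. As a background for these counts, edgeR called 9.08% of all 15043 genes tested lower and 10.6% higher. The groups did not overlap in CPM for 15.4% of all genes tested. Of 14 receptor signalling genes, 12 were tested, 1 was lower and none higher (median log2 fold change -0.30); the lower one was Trat1, which encodes an adaptor that binds the receptor complex (0.510 ± 0.226 CPM in KO-labelled libraries and 1.03 ± 0.232 CPM in controls, edgeR adjusted p = 0.0305). Trat1 was called in 8 of 20 alternatives. The call ended on log2(TPM + 1) (limma adjusted p = 0.496), with length offsets (edgeR adjusted p = 0.441) and with the replicate block (0.0580). It also ended without KO-labelled library 1, 2, 3 or 4 or control 1, 2 or 4 (0.05004 to 0.0798). At an unadjusted p under 0.05, 1 signalling gene was higher and 4 lower, and DESeq2 and limma-voom each called 0 higher and 1 lower. Of 15 surface and costimulatory genes, 9 were tested, and 3 were lower and 0 higher by edgeR, at an unadjusted p under 0.05 and by DESeq2; limma-voom called 2 lower and 0 higher. Cd27, a costimulatory receptor of the TNF receptor family, averaged 4.10 ± 0.273 CPM in KO-labelled libraries and 6.12 ± 0.769 CPM in controls, without overlap (adjusted p = 0.00386). Cd226, an activating receptor of T and NK cells, averaged 1.07 ± 0.348 CPM in KO-labelled libraries and 2.28 ± 0.531 CPM in controls, also without overlap (adjusted p = 0.0102). Cd6, a scavenger-type receptor of T cells, averaged 0.335 ± 0.148 CPM in KO-labelled libraries and 0.844 ± 0.347 CPM in controls (adjusted p = 0.0323). Cd6 was called in 12 of 20 alternatives. Its call was lost by limma-voom (0.0551), on log2(TPM + 1) (limma adjusted p = 0.0679), and without KO-labelled library 2, 3 or 5 or control 2, 3 or 4 (0.0545 to 0.0859). Cd27 and Cd226 were called in all 21 alternatives run. The 6 untested genes of that list were Cd5, Cd28, Ctla4, Cd40lg, Il2ra and Pdcd1, which fell below the filter. Cd8b1, the beta chain partner of Cd8a, averaged 0.750 ± 0.396 CPM in KO-labelled libraries and 0.756 ± 0.230 CPM in controls (adjusted p = 0.995).

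Among 12 transcription factors of T and innate lymphoid cells, 11 were tested, with 1 higher and 1 lower. Bcl11b, which T cells need for commitment to their lineage, averaged 0.443 ± 0.196 CPM in KO-labelled libraries and 0.9996 ± 0.274 CPM in controls, with no overlap (log2 fold change -1.17 ± 0.34 SE, edgeR adjusted p = 0.0309); the call was lost on log2(TPM + 1) (0.0527) and without KO-labelled library 5 or control 1, 4 or 5 (0.0527 to 0.0694). Zbtb16, which encodes PLZF, a factor of NKT cells and innate lymphoid precursors, averaged 1.29 ± 0.276 CPM in KO-labelled libraries and 0.554 ± 0.200 CPM in controls, with no overlap (log2 fold change 1.21 ± 0.29 SE, adjusted p = 0.0103); it was called in 19 of 20 alternatives, not without KO-labelled libraries 1 and 2 together (0.0794). The NK factors Tbx21 and Eomes did not pass.

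None of 18 NK cell receptor genes passed by edgeR, DESeq2 or limma-voom, and at an unadjusted p under 0.05 there were 1 higher and 1 lower. Their median log2 fold change was 0.24, beside 7.77e-05 over all genes tested, and 14 of the 18 had positive estimates. The highest sums of these 18 genes were 132 CPM, in KO-labelled library 2, and 130 CPM, in control 3. Whether a single library carried the positive estimates was not tested. Control 3 also had the highest Kupffer cell sum, 2221 CPM, and which cells the RNA of these 18 genes came from was not tested. Klrg1, an inhibitory lectin-like receptor, averaged 1.17 ± 0.513 CPM in KO-labelled libraries and 0.691 ± 0.213 CPM in controls (edgeR adjusted p = 0.111). Cd160, a receptor for HVEM, averaged 1.82 ± 0.361 CPM in KO-labelled libraries and 2.85 ± 0.958 CPM in controls (adjusted p = 0.0944). Members of the Klra family share sequence, so their separate values are uncertain.

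Of 12 cytotoxic effector and cytokine genes, 10 were tested and 1 passed, Tnfsf10, the death ligand TRAIL, at 149.9 ± 21.9 CPM in KO-labelled libraries and 209 ± 23.4 CPM in controls (edgeR adjusted p = 0.00698). Which cells the Tnfsf10 RNA came from was not tested. Gzmb, the granzyme that cuts caspases, averaged 15.03 ± 5.15 CPM in KO-labelled libraries and 9.17 ± 1.80 CPM in controls and did not pass by a narrow margin (adjusted p = 0.0513). Prf1, the pore-forming perforin, averaged 8.66 ± 4.40 CPM in KO-labelled libraries and 5.88 ± 1.52 CPM in controls (adjusted p = 0.222). DESeq2 called 1 gene of this list higher and 1 lower, and limma-voom 0 higher and 1 lower.

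Of 12 homing receptors, 2 were higher and 2 lower. Cxcr6, the receptor that holds T, NKT and innate lymphoid cells in liver sinusoids, averaged 0.735 ± 0.405 CPM in KO-labelled libraries and 2.29 ± 1.07 CPM in controls (log2 fold change -1.63 ± 0.44 SE, edgeR adjusted p = 0.0213). The Cxcr6 call was lost without a filter (0.0553), without control 4 (0.0533) and with the replicate block (0.0697). Itga2, which encodes CD49b of NK cells and platelets, averaged 2.62 ± 0.561 CPM in KO-labelled libraries and 1.32 ± 0.222 CPM in controls, without overlap (adjusted p = 0.00351). Itga1, which encodes CD49a of liver innate lymphoid cells and is also an endothelial gene, averaged 362 ± 26.4 CPM in KO-labelled libraries and 476 ± 55.5 CPM in controls (adjusted p = 0.00446). S1pr1, the receptor for lymphocyte egress and a major endothelial gene, averaged 447.5 ± 42.4 CPM in KO-labelled libraries and 230 ± 24.5 CPM in controls (adjusted p = 6.96e-06).

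Among 10 genes of the IL-7 receptor's partners and ligands, 1 was higher and 3 lower. Il2rg, the common gamma chain, averaged 88.0 ± 7.96 CPM in KO-labelled libraries and 52.0 ± 8.27 CPM in controls (edgeR adjusted p = 2.01e-04). Tslp, a cytokine whose receptor contains the Il7r product, averaged 0.326 ± 0.0999 CPM in KO-labelled libraries and 1.09 ± 0.200 CPM in controls (adjusted p = 4.73e-04). The kinase gene Jak1 averaged 1183 ± 52.1 CPM in KO-labelled libraries and 1519 ± 71.8 CPM in controls (adjusted p = 4.97e-04), and Stat5a, its downstream factor, 11.5 ± 1.31 CPM in KO-labelled libraries and 14.9 ± 2.44 CPM in controls (adjusted p = 0.0406). The Stat5a call ended with library totals alone (0.0798), on log2(TPM + 1) (0.206), and without KO-labelled library 2, 3, 4 or 5 or control 1, 2 or 4 (0.0598 to 0.0845). Over all 8 of these further lists, 89 of 100 genes were tested, with 5 higher, 13 lower and 71 not passed by edgeR. DESeq2 called 6 of them higher and 13 lower, and limma-voom 5 higher and 11 lower. The median log2 fold change of these 89 genes was -0.05. Among all 15043 genes tested, edgeR called 10.6% higher and 9.08% lower. On the same 15043 genes, DESeq2 called 1743 higher and 1608 lower, and limma-voom 1598 higher and 1329 lower.

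**Figure D4:**
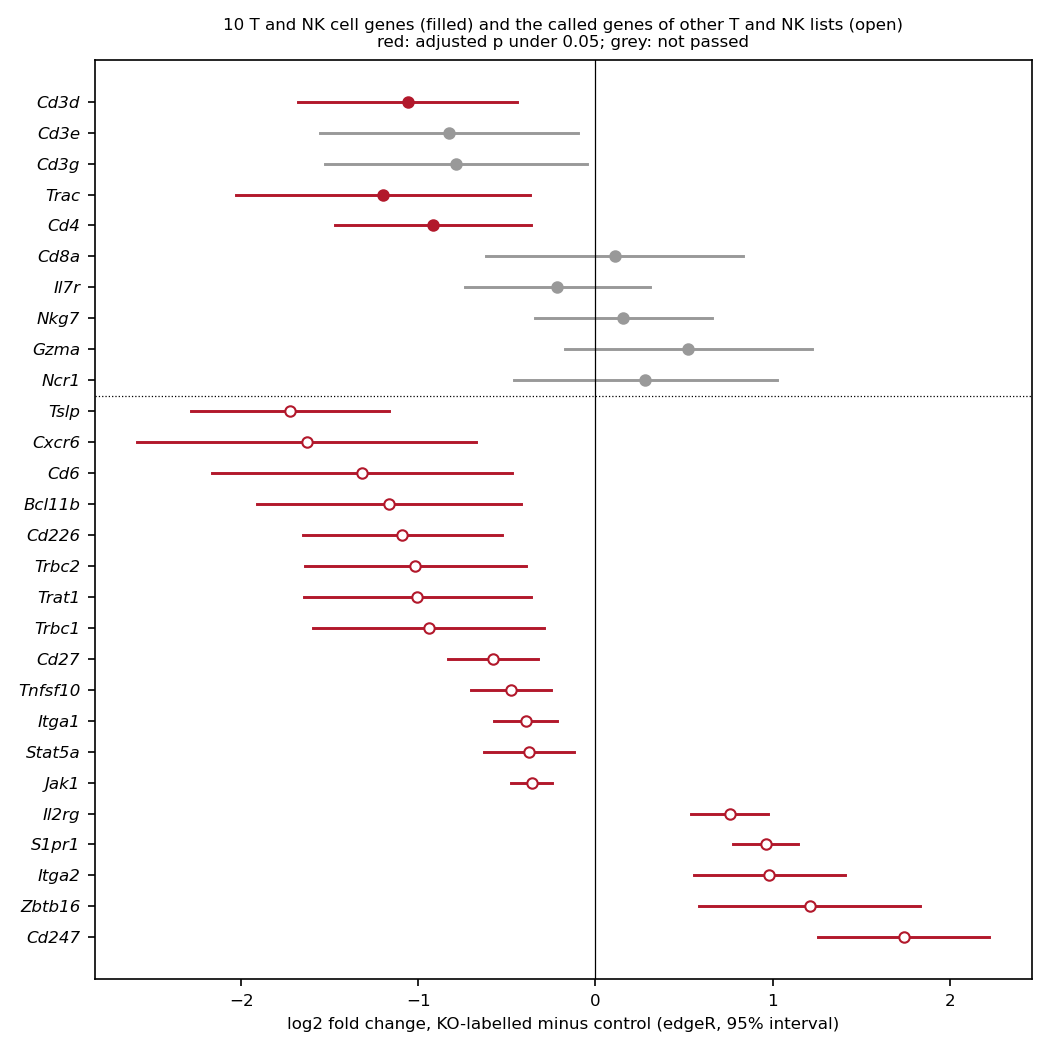
Log2 fold change, KO-labelled over control, with 95% intervals from edgeR for the 10 genes (filled) and for the called genes of the further lists (open); red marks an adjusted p under 0.05 and grey a gene that did not pass. Trac, Cd3d and Cd4 lie left of 0, at -1.20, -1.06 and -0.92, and Cd247 lies farthest right, at 1.74.

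The genes whose pattern over the 10 libraries was most like that of Cd3e and of Nkg7 were ranked among 13099 genes by the root mean square difference of log2 CPM, centred per gene. Nearest to Cd3e were Gimap7 (0.27), Trbc1 (0.28), Lat (0.30), Cd160 (0.31) and Sec16b (0.31), where Cd3e itself varied by 0.64 around its mean. Of the other genes of the set, Cd3g (0.32) and Cd3d (0.33) were nearest to Cd3e, then Trac (0.41), and Gzma (0.91) was the farthest. Nearest to Nkg7 were Coro2a (0.16), Spn (0.17), Cyfip2 (0.18), Rasal3 (0.18) and Acap1 (0.19), where Nkg7 varied by 0.35. Gzma (0.28) and Ncr1 (0.29) were the genes of the set nearest to Nkg7, and Trac (0.96) was the farthest.

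Cd3d, Cd3e, Cd3g, Trac, Cd4 and Gzma kept their sign under every alternative run, while Cd8a, Il7r, Nkg7 and Ncr1 did not, and the calls did not all hold. Cd3d was called in 16 of 20 alternatives, Cd4 in 12 of 21, Trac in 11 of 21, Cd3e in 2 of 21 and Cd3g in 0 of 21.

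**Figure D5:**
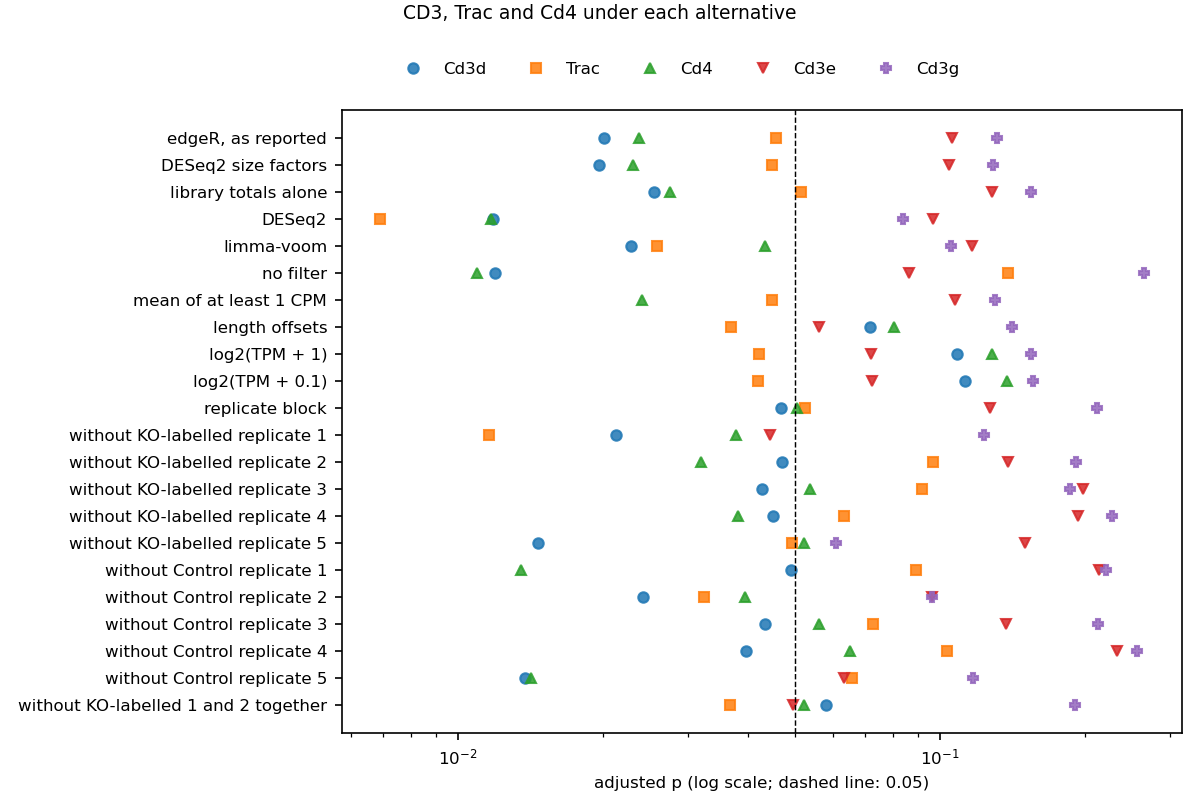
Adjusted p of Cd3d, Trac, Cd4, Cd3e and Cd3g (log axis; the dashed line is 0.05) for the reported edgeR fit and each alternative. Points left of the line are called; Cd3d stays left of it in every fit that leaves out a single library, and Cd3g is right of it in all.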

How the data were processed

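RNA of 5 KO-labelled and 5 control libraries was sequenced on a BGISeq-500; titles gave each sample its group and number. Per the submitters' processing notes, reads were handled with Trim Galore 0.6.4, kallisto 0.4.6 and GRCm38.p6. The authors deposited, per library, expected counts of each gene (kallisto estimates, often fractional) and its TPM; the step from transcripts to genes is not given in the sources used here. GENCODE M21 gave a symbol to 55144 of 55385 identifiers, 54487 with the same version.

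Counts were rounded and tested with edgeR 4.0.16 (R 4.3.3): filterByExpr with a minimum count of 10, TMM, the robust quasi-likelihood test on genotype, and Benjamini-Hochberg adjustment over 15043 genes at 0.05. CPM used TMM-scaled library sizes, and log2 CPM a prior count of 2. The SE is the log2 fold change divided by the square root of the test's F. Libraries of a group differed by more than sampling noise (chi-square per degree of freedom 11.4 to 32.3) and were kept as separate samples. Alternatives were DESeq2 1.42.0, limma-voom (limma 3.58.1), DESeq2 size factors, library totals alone, no filter, a mean of at least 1 CPM, offsets for length, log2(TPM + 1) and log2(TPM + 0.1) with limma, a replicate block and leaving out each library. A fit without KO-labelled libraries 1 and 2 together was added after seeing the data. The test was run on simulated counts first.

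The 10 genes and all lists were chosen with earlier results of these data known. Named beside the 10 genes are Acvrl1, up to 4 called genes per further list (or, with none called, the 2 with the smallest p), up to 2 per cell list and the 5 genes most like Cd3e and Nkg7; other genes named were chosen after their values were seen. Promoter windows are from RefSeq. Protein sequences were not used here.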

Additional observations from a re-analysis of the deposited data

Results flagged for a closer look

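Groups of 5 libraries were checked for a library far from its group, meaning a gap to its nearest neighbour that is a large share of the group's range. Of 132 groups of named genes and list sums, 10 (7.58%) had one. The cut used is passed by about 1 in 20 groups of independent, normally distributed values. The groups here were untransformed CPM and shared genes, as Ncr1 and Mmp9 also enter list sums, so 7.58% cannot be weighed against that rate. KO-labelled library 2 was the far one for Ncr1 (5.05 CPM), for Klrg1 (2.05 CPM) and for the sum of Nkg7, Gzma and Ncr1 (66.0 CPM). KO-labelled library 1 was far from its group in the neutrophil sum (609 CPM) and in Mmp9, a neutrophil gelatinase (48.6 CPM). KO-labelled library 5 was low for Cd247 (3.85 CPM) and for Clec9a, a dendritic cell receptor (34.7 CPM). Control 3 was high for Il2rg (66.6 CPM) and for the platelet sum (24.1 CPM), and control 2 for the dendritic cell sum (240 CPM).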

How the results depend on the processing

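The count of the 10 genes called lower, 3 as reported, was 1 with length offsets, on log2(TPM + 1), on log2(TPM + 0.1) and with the replicate block. It ran from 1 to 4 with single libraries left out: 1 without KO-labelled library 3, control 3 or control 4, and 4 without KO-labelled library 1. No gene of the 10 was called higher under any alternative. Under the replicate block Trac (edgeR adjusted p = 0.0524) and Cd4 (0.0504) were lost, as were Trbc1 (0.112), Trat1 (0.0580) and Cxcr6 (0.0697). Deviations of same-numbered libraries correlated at -0.20, 0.35, 0.01, 0.11 and 0.28. Libraries with unlike numbers were not correlated, so these values cannot decide whether the numbers are pairs. The labels give no source shared by same-numbered libraries, and the reported fit did not treat the numbers as pairs. Calls of lower genes over the whole table, 1366 as reported, were 685 on log2(TPM + 1), 687 on log2(TPM + 0.1) and 837 without KO-labelled libraries 1 and 2 together. In that last fit Cd3d (0.0581) and Cd4 (0.0522) were lost and Cd3e (0.0495) was called. Log2 fold changes of genes that were not called turned sign: Il7r was 0.024 on log2(TPM + 1) and 0.030 on log2(TPM + 0.1); with single libraries left out, Cd8a ran from -0.072 to 0.39, Nkg7 from -0.13 to 0.27 and Ncr1 from -0.12 to 0.53; and without KO-labelled libraries 1 and 2 together they were -0.15, -0.15 and -0.10. Apart from the construction of each alternative, the cause was not tested. The filter at a mean of 1 CPM left out Cd3d and Il7r. The depth, with as few as 9 counts of a gene in a library, limits all CD3 results.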

Other observations

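Cd40lg, the helper T cell ligand of CD40, fell below the filter and was not tested; it had 0 to 4 counts in KO-labelled libraries and 9 to 17 counts in controls. Themis, a thymocyte signalling protein that passed the filter, had 2 to 11.2 counts in KO-labelled libraries and 6 to 23.5 counts in controls (edgeR adjusted p = 0.0559). Foxp3, the factor of regulatory T cells, had at most 3.14 counts in any KO-labelled library and 6.33 counts in any control, and Gzmk had at most 10 counts in any KO-labelled library and 4 counts in any control. Lck, the kinase that starts receptor signalling, was at 11.2 to 14.1 CPM in KO-labelled libraries and 11.2 to 11.5 CPM in controls, and Prkcq, a kinase known from T cells, was at 65.2 to 77.7 CPM in KO-labelled libraries and 56.5 to 65.9 CPM in controls. Neither passed (edgeR adjusted p = 0.271 for Lck and 0.103 for Prkcq). Thy1 averaged 8.11 ± 1.29 CPM in KO-labelled libraries and 9.70 ± 1.296 CPM in controls (SD, n = 5 each; edgeR adjusted p = 0.192). The cells these transcripts came from were not tested. These genes were chosen after their values were seen.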
